A study of Mus musculus with 4 samples.

Results

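The genes described here encode nuclear-coded subunits of the mitochondrial respiratory chain and of ATP synthase, measured in the kidney cortex of diabetic and nondiabetic mice with and without ICAM-1. They were chosen by name: every gene on the array whose symbol starts with Nduf, Uqcr, Atp5, Cox4, Cox5, Cox6, Cox7 or Cox8, together with Sdha, Sdhb, Sdhc, Sdhd, Cyc1 and Cycs. Of 57 such genes, 4 were left out because their spots lay in columns 44 to 48 of the upper block of the slide, where bright spots were lost on 1 array. The remaining 53 of 9415 features comprised 19 complex I subunits, 3 complex I assembly factors that share the Nduf name, 3 complex II subunits, 3 complex III subunits, cytochrome c, 14 genes grouped under complex IV and 10 ATP synthase subunits. Each was read by 1 probe.

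Kidneys came from male C57BL/6J mice that had received an injection at 8 weeks of age and were killed 12 weeks later, at 20 weeks. Nondiabetic wild-type mice (ND-WT, ICAM-1+/+) and nondiabetic knockout mice (ND-KO, ICAM-1-/-) received citrate buffer, and diabetic wild-type mice (DM-WT, ICAM-1+/+) and diabetic knockout mice (DM-KO, ICAM-1-/-) received streptozotocin, a toxin of pancreatic beta cells, at 200 mg/kg. Streptozotocin-treated mice counted as diabetic only above a set blood glucose level, and the knockout is present in every cell of the animal. RNA of each group was read on 1 one-colour CodeLink array, so there are 4 arrays and no replicates. The labels give 5 mice per group and leave unsaid whether RNA was pooled. Differences between 2 arrays therefore have no replicate check and are described by size. The only test was a limma fit with terms for diabetes and genotype over all 4 arrays. Its spread is the departure from additivity, or how far the diabetes difference disagrees between the genotypes. The p-values therefore cover these arrays only and do not measure the spread between mice. The transcript of Icam1 was not analysed here, so it does not check the genotype labels.

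Electrons from NADH enter the chain at complex I and those from succinate at complex II. They pass through ubiquinone, complex III and cytochrome c to complex IV, which reduces oxygen. Proton pumping by complexes I, III and IV drives ATP synthase. Proximal tubule cells, which make up most of the renal cortex, are rich in mitochondria and depend on oxidative phosphorylation to power reabsorption of solutes. Most subunits are encoded in the nucleus, and several complex IV subunits have a separate isoform used mainly in heart and skeletal muscle.

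Promoters of 4 genes are shown as examples. Sdhb and Atp5g2 differed in opposite directions with diabetes in the wild-type and the knockout pair of arrays. Cox7b and Atp5k were higher in both, a direction that depended on the scaling for 1 genotype each. At 1.1-fold, opposite differences were found for 2 of 50 members and 2.25% of all genes. Higher in both at that fold were 5 of 50 members and 6.36% of all genes. Each sequence is the 250 bases before the RefSeq transcript start on GRCm38.p6, written 5′ to 3′ on the gene's own strand. Capitals mark the core GCGCANGCG, on either strand, of nuclear respiratory factor 1 (NRF1), a transcription factor known for its sites in promoters of respiratory genes. The Sdhb promoter is chr4:140961021-140961270 on the plus strand, that of Atp5g2 is chr15:102671048-102671297 on the minus strand, that of Cox7b is chrX:106015450-106015699 on the plus strand and that of Atp5k is chr5:108434400-108434649 on the minus strand.
Sdhb: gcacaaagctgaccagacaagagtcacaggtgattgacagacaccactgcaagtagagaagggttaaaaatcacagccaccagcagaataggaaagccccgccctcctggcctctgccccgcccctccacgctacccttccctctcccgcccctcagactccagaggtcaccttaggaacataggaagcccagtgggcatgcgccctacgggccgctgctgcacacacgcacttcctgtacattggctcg
Atp5g2: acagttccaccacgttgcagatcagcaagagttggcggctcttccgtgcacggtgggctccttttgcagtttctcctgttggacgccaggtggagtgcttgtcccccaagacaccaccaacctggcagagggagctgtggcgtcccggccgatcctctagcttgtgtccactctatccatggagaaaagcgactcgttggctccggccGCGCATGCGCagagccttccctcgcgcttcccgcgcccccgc
Cox7b: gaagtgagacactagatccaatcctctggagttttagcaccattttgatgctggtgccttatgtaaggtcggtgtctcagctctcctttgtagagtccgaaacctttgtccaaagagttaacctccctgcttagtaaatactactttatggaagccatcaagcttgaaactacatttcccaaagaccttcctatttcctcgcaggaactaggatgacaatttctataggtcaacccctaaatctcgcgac
Atp5k: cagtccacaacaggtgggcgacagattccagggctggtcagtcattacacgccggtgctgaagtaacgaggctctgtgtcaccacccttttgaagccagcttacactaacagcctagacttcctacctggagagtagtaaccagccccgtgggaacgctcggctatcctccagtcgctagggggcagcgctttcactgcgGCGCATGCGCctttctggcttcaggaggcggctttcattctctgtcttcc

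The core matched both strands, overlapping by all but 1 base, in a stretch 42 to 33 bases before the start of Atp5g2 and 50 to 41 bases before that of Atp5k, and it was not among the letters of the other two windows. Promoters in the table could be matched to 44 of the 53 genes, which together had 48. On either strand, 9 of these 48 promoters (18.8%) held GCGCANGCG, against 5.16% of all 32851 promoters of the same length. With the core made 1 base longer at its 3′ end, a length searched first and replaced after its result was seen, the shares were 14.6% (7 of 48) and 3.74%. The matches of the shorter core belonged to 8 genes: Ndufa5 and Ndufa11 of complex I, Sdha of complex II, Cycs, and Atp5c1, Atp5g2, Atp5k and Atp5l of ATP synthase. The ETS core CCGGAAG, bound by GABP among others, was found on either strand in 3 of the 48 (6.25%) against 6.91% of all promoters, and the YY1 core GCCATNTTG in 1 (2.08%) against 1.33%. The ETS matches belonged to Atp5j, Atp5l and Ndufs3 and the YY1 match to Ndufb5. The 8 genes with an NRF1 core did not share a direction: on DM-WT against ND-WT the log2 difference was 0.27 for Atp5k and 0.21 for Ndufa5, but -0.22 for Atp5c1 and -0.21 for Cycs. A match is a description of the letters and not a bound site.

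Nearly all members were measured on every array. A spot was counted as measured where the scanner software marked it usable. Of the 53 members, 50 were measured on all 4 arrays, against 60.4% of all features. The 3 exceptions were Cox4i2, the isoform of subunit IV known from lung, which was not above background on any array, Cox8b, the muscle isoform of subunit VIII, which was not above background on DM-KO, and Ndufa11, a complex I membrane-arm subunit, whose spot was poor on DM-KO. Levels below are background-corrected, quantile-normalized intensities on the log2 scale, and a level is compared only with the same probe's level on another array. In bulk cortex fewer cells of a type and less RNA per cell cannot be told apart.

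DM-WT stood apart from the other arrays in ways that touch these results. The ratio of added bacterial control transcripts to their ND-WT signal was 0.556 on DM-WT, whereas DM-KO had 1.22 and ND-KO 1.27. Median intensity after background subtraction was 37.7 on DM-WT and 43.5 to 46.3 on the other 3 arrays. Replicate spots of a bacterial probe within an array varied with a median coefficient of variation of 7.20% to 7.69%. The part of these features of DM-WT in the results was not tested.

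Across the 4 arrays the members varied little. The range of a member, its highest minus its lowest log2 level, had a median of 0.18 over the 50 members measured throughout, against 0.19 over all genes. It ran from 0.04 for Ndufb2, a complex I membrane-arm subunit, to 0.40 for Cox7a1, the muscle isoform of complex IV subunit VIIa. Of the 50, 40 (80%) stayed within 1.2-fold on all arrays, against 71.5% of all genes. No member measured on both arrays of a comparison below differed by 1.5-fold. Cox8b on DM-WT against DM-KO is not covered, as its DM-KO spot was not above background. Among all genes 1.66% were at least 1.5-fold higher and 0.738% lower on DM-WT against ND-WT, 0.513% and 0.496% on DM-KO against ND-KO, 0.151% and 0.402% on ND-KO against ND-WT, and 0.629% and 1.04% on DM-KO against DM-WT.

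The comparison of DM-WT with ND-WT addressed the effect of diabetes where ICAM-1 is present. The 52 members measured on both arrays had a median log2 difference of 0.02, beside -0.01 for all 5827 genes measured, and 29 of them (55.8%) lay above 0, against 46.3% of all genes. At least 1.2-fold higher on DM-WT were 5 members, or 9.62%, against 7.45% of all genes, and at least 1.2-fold lower were 0, against 6.74% of all genes. Of these 5, 4 belonged to complex IV: Cox7a1, Cox8b, Cox7a2 and Cox7b. The fifth was Atp5k, subunit e of ATP synthase, which helps hold ATP synthase dimers together. These counts depend on the scaling: with arrays centred on their median instead, the members' median was -0.15, 2 members were 1.2-fold higher and 11 lower, and the all-gene shares were 4.63% higher and 17.0% lower.

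By complex, the median log2 difference of DM-WT from ND-WT was 0.10 for complex I, 0.11 for complex III and 0.11 for complex IV, and each of these turned negative under median centring (-0.09, -0.08 and -0.08). It was -0.15 for complex II and -0.12 for the complex I assembly factors, and both stayed below 0 under all 9 settings tried. For ATP synthase it was -0.00, with a range of -0.20 to 0.02 over the settings. Here and below, dropping the filter or taking the brightest probe could not change a measured member's value, as each has 1 probe. Those settings therefore add no check on a sign. Above 0 lay 13 of 19 complex I subunits, 9 of 13 complex IV genes and 4 of 10 ATP synthase subunits, but 0 of 3 assembly factors.

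**Figure D1:**
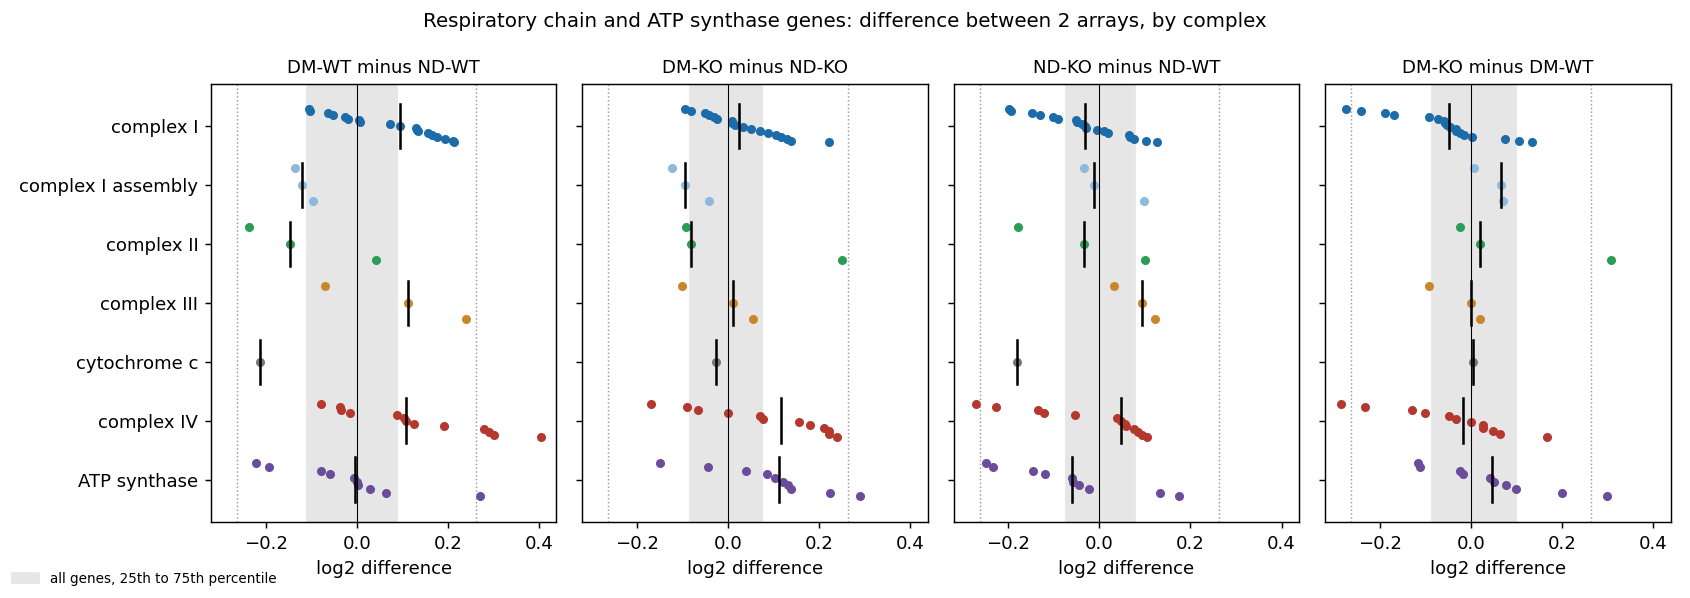
Each point is 1 gene's log2 difference between the 2 arrays named above the panel (x axis), by complex (rows); black bars are the median of the complex, the grey band is the central 50% of all genes and dotted lines mark 1.2-fold. Most points lie inside 1.2-fold in all 4 panels; the complex I, III and IV medians of 0.10, 0.11 and 0.11 in the first panel turn negative (-0.09, -0.08 and -0.08) when arrays are centred on their median.

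Within complex I, the highest was Ndufa5, a subunit of the arm that takes up NADH, with log2 levels of 9.19 on ND-WT and 9.41 on DM-WT, with 9.05 on ND-KO and 9.13 on DM-KO. DM-WT was the highest of the 4 arrays and ND-KO the lowest. Ndufa3, a small accessory subunit of the membrane arm, differed by a similar 0.21 on the log2 scale between DM-WT and ND-WT. The lowest was Ndufc1, also an accessory subunit, with a log2 difference of -0.10. Ndufs3 and Ndufv2, which belong to the conserved core of the enzyme, differed by -0.02 and 0.10.

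Complex II passes electrons from succinate to ubiquinone through a flavin subunit (Sdha), an iron-sulfur subunit (Sdhb) and membrane anchors. Sdhb stood at 12.36 on ND-WT and 12.12 on DM-WT on the log2 scale, the lowest log2 difference among the members at -0.24, or 1.18-fold. It lay between -0.43 and -0.20 over the settings. Sdha was lower too, at 11.92 and 11.77, while the anchor Sdhc was at 10.84 and 10.88. In complex III the highest was Cyc1, cytochrome c1, at 10.36 and 10.60, and the lowest was Uqcrfs1, the Rieske iron-sulfur protein, at 11.58 and 11.51. Cycs, the mobile carrier cytochrome c, had log2 levels of 11.97 on ND-WT and 11.75 on DM-WT, with 11.78 on ND-KO and 11.76 on DM-KO. ND-WT was thus the high array for Cycs and the other 3 lay close together.

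In complex IV, Cox7a1 had log2 levels of 7.46 on ND-WT and 7.86 on DM-WT, with 7.51 on ND-KO and 7.58 on DM-KO. DM-WT was the high array, 1.32-fold above ND-WT, and the other 3 lay within 0.12 of each other on the log2 scale. Cox7a2, the liver-type isoform of the same subunit, stood at 11.87 on ND-WT and 12.16 on DM-WT, with 11.97 on ND-KO and 12.18 on DM-KO. Cox7b, another small membrane subunit, stood at 12.64, 12.92, 12.70 and 12.92 on the same arrays. Both were higher on the diabetic array of each genotype. The log2 difference of DM-WT from ND-WT held its sign under all 9 settings for Cox7a1 (0.28 to 0.49) and Cox7a2 (0.08 to 0.32), but for Cox7b it was -0.06 under median centring. The lowest of complex IV was Cox7c, at -0.08.

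In ATP synthase, Atp5k had log2 levels of 10.58 on ND-WT and 10.85 on DM-WT, with 10.76 on ND-KO and 10.90 on DM-KO. Both diabetic arrays lay above both nondiabetic ones. The lowest was Atp5c1, the gamma subunit of the rotating central stalk, at 10.98 on ND-WT and 10.76 on DM-WT. Atp5g2, one of the genes for subunit c of the rotor ring, differed by -0.19 on the log2 scale. Atp5a1 and Atp5b, the alpha and beta subunits of the catalytic core, differed by -0.06 and -0.01, with ranges of -0.29 to -0.04 and -0.23 to 0.01 over the settings.

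The comparison of DM-KO with ND-KO asked the same of mice lacking ICAM-1. The 50 members measured on both had a median log2 difference of 0.05, beside -0.01 for all 6047 genes measured, and 31 (62%) lay above 0, against 47.5%. At least 1.2-fold higher was 1 member (2%), against 4.27% of all genes, and at least 1.2-fold lower were 0, against 3.46%. The 1 higher member was Atp5o, the peripheral-stalk subunit that confers oligomycin sensitivity, with a log2 level of 11.73 on ND-KO and 12.02 on DM-KO, or 1.22-fold higher. On the wild-type arrays it was at 11.98 and 12.04, so ND-KO was the array that stood apart. The members' median was -0.05 under median centring and -0.08 with the authors' deposited values.

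The next highest members on DM-KO against ND-KO were Sdhb, with a log2 difference of 0.25, and Cox5b, a complex IV subunit facing the matrix, with 0.24. The highest complex I subunit was Ndufb9, of the membrane arm, with 0.22. The lowest 3 were Cox7a2l, which helps join complexes III and IV into supercomplexes, at -0.17, Atp5pb, subunit b of the peripheral stalk, at -0.15, and the assembly factor Ndufaf2 at -0.12. The lowest complex I subunit was Ndufa1, at -0.09, and in complex III Cyc1 and Uqcrfs1 stood at 0.05 and -0.10. The median was 0.12 for complex IV and stayed above 0 under all 9 settings, but at only 0.03 under median centring and 0.004 with the deposited values. It was 0.11 for ATP synthase, with 8 of 10 subunits above 0, and reached -0.01 with the deposited values. The assembly factors were again 0 of 3 above 0, with a median of -0.09.

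The diabetes comparisons of the 2 genotypes share no array, so their values can be set side by side. At least 1.1-fold higher in both were 5 of the 50 members measured throughout, against 6.36% of all 5690 such genes: Ndufb9, Cox6c, Cox7a2, Cox7b and Atp5k. At least 1.1-fold lower in both were 0, against 6.64%. These counts depend on the scaling: under median centring 0 members were higher in both and 8 lower, and with the deposited values 0 and 6. Complex IV supplied 3 of the 5, all of them small membrane-bound subunits outside the catalytic core. Cox6c stood at 12.54, 12.73, 12.61 and 12.79, and Ndufb9 at 11.48, 11.65, 11.35 and 11.58, on the log2 scale on the wild-type and knockout arrays, the nondiabetic one of each first. Under median centring the wild-type log2 difference was below 0 for Ndufb9 (-0.03), Cox6c (-0.12) and Cox7b (-0.06), and with the deposited values the knockout difference was below 0 for Atp5k (-0.01) and Cox6c (-0.03).

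At least 1.1-fold different in opposite directions were 2 members, Sdhb and Atp5g2, against 2.25% of all genes. Sdhb had log2 levels of 12.36 on ND-WT and 12.12 on DM-WT, with 12.18 on ND-KO and 12.43 on DM-KO. Atp5g2 stood at 10.82, 10.63, 10.70 and 10.93 on the same arrays. For both genes ND-WT and DM-KO were the high arrays and DM-WT and ND-KO the low ones. The knockout difference less the wild-type difference was 0.49 for Sdhb and 0.42 for Atp5g2 on the log2 scale, with ranges of 0.39 to 0.53 and 0.40 to 0.54 over the settings. The knockout difference alone stayed above 0 under all 9 settings but was under 1.1-fold for Sdhb and Atp5g2 under median centring (0.10 and 0.12) and with the deposited values (0.07 and 0.09). With 1 array per group the difference between genotypes was not tested.

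Other members with a high knockout less wild-type value were Cox7c, a small complex IV subunit, at 0.30, and Cox5b at 0.28 on the log2 scale. The lowest were Cox7a1 at -0.33, Ndufa3 at -0.29 and Ndufa1 at -0.25. The median of this value was 0.01 over the members and 0.01 over all genes. It was 0.13 for ATP synthase, with 8 of 10 subunits above 0 and a range of 0.10 to 0.24 over the settings. For complex III it was -0.10, with 0 of 3 above 0. For complex IV it was -0.07, but 0.05 under median centring. Median centring also gave the 0.24 for ATP synthase, and it moved the median over all members to 0.13. Signs over the 50 members were mixed: 18 were above 0 in both genotypes, 10 below 0 in both, 9 above 0 only in the wild type and 13 only in the knockout. The same sign counts were not made over all genes, so those of the members and complexes have no background share. Across these 50 genes, which share arrays and are not independent, the 2 differences had a Pearson r of 0.12 and a Spearman rho of 0.14, beside 0.51 and 0.35 over all 5690 genes. The members spanned only -0.24 to 0.40 in the wild type and -0.17 to 0.29 in the knockout. All genes measured in each comparison spanned -1.58 to 3.48 and -1.33 to 2.01, so the coefficients are not directly comparable.

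**Figure D2:**
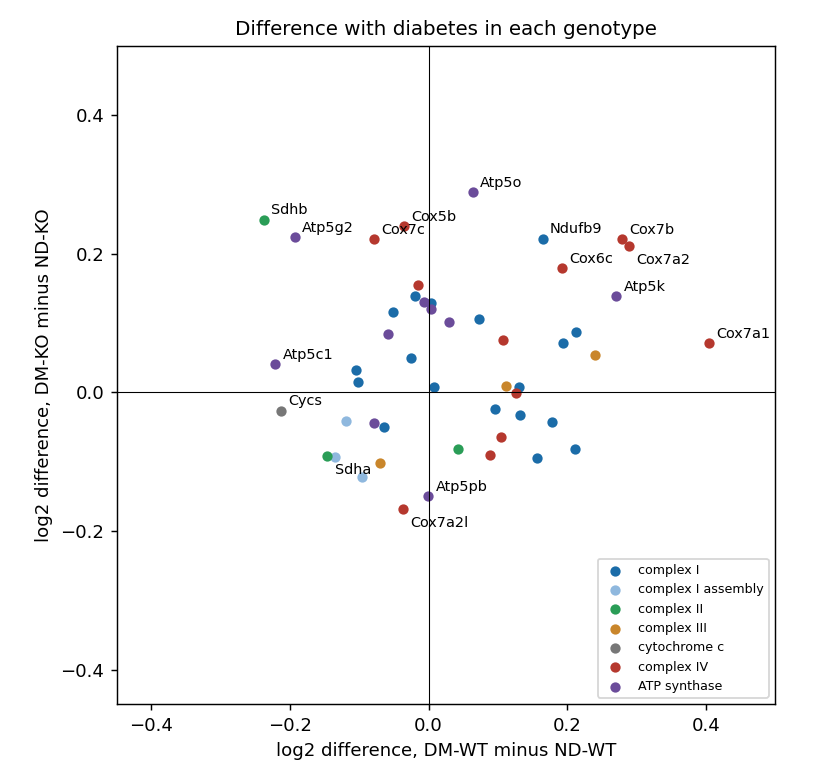
Each point is 1 of the 50 members measured on all arrays, with the log2 difference of DM-WT from ND-WT on the x axis and of DM-KO from ND-KO on the y axis, coloured by complex. Sdhb and Atp5g2 stand at the upper left, and Ndufb9, Cox6c, Cox7a2, Cox7b and Atp5k at the upper right, of which Ndufb9, Cox6c and Cox7b lie below 0 on the x axis under median centring, and Atp5k and Cox6c below 0 on the y axis with the deposited values.

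The comparison of ND-KO with ND-WT set the genotypes side by side without diabetes. With 1 array per group, loss of ICAM-1 cannot be told apart from other differences between the mice or arrays. The 52 members had a median log2 difference of -0.03, beside 0.00 over all 5974 genes, and 22 (42.3%) lay above 0, against 50.9%. At least 1.2-fold higher were 0 members, against 3.3% of all genes, and 1 was lower, against 3.15%. That member was Cox5a, a complex IV subunit facing the matrix, with log2 levels of 9.09 on ND-WT and 9.07 on DM-WT, with 8.82 on ND-KO and 8.97 on DM-KO. Both knockout arrays lay below both wild-type arrays for this gene. Atp5o was lower by a log2 difference of -0.25, Atp5l, subunit g of ATP synthase, by -0.23 and Cox5b by -0.23.

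The highest members on ND-KO against ND-WT were Atp5k, at 0.17, Atp5pb, at 0.13, and Ndufs4, a complex I subunit, at 0.13 on the log2 scale. In complex I the lowest was Ndufab1, the mitochondrial acyl carrier protein, at -0.20, with a range of -0.42 to -0.17 over the settings. Its spot was dim, with background-subtracted intensities of 47.3 on ND-WT and 36.1 on ND-KO. In complex II Sdhb was at -0.18 and Sdhc at 0.10, and all 3 complex III genes lay above 0, led by Uqcrb at 0.12. The ATP synthase median was -0.06, with 2 of 10 subunits above 0, and it stayed below 0 under all 9 settings. The complex IV median of 0.05 did not keep its sign: it was -0.04 under median centring and -0.07 with the deposited values.

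The comparison of DM-KO with DM-WT asked how the diabetic cortex differed with and without ICAM-1, and it shares each array with one of the comparisons above. The 50 members had a median log2 difference of -0.02, beside 0.00 over all 5882 genes, and 22 (44%) lay above 0, against 51.5%. At least 1.2-fold higher were 2 (4%), against 5.61% of all genes, and 2 were lower (4%), against 5.29%. Under median centring the all-gene shares were 10.4% higher and 3.52% lower, and the members' median was 0.07. The higher members were Sdhb, at 1.24-fold, and Atp5g2, with a log2 difference of 0.30. The lower ones were Cox7a1, at 1.22-fold below DM-WT, and Ndufa5, with a log2 difference of -0.27. Cox8b, not above background on DM-KO and so not counted, read 0.58 lower there on the log2 scale. That is a difference from a background reading and not a measured one.

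Atp5c1 was next among the higher members, at 0.20, and Ndufa1 next among the lower ones, at -0.24 on the log2 scale. In complex I 4 of 18 subunits lay above 0, with Ndufa9 the highest at 0.13; its median was -0.05, but 0.04 under median centring. In complex IV the highest was Cox7c at 0.17, in ATP synthase the lowest was Atp5l at -0.12, and complex III stayed between -0.09 (Cyc1) and 0.02 (Uqcrb). The 3 assembly factors lay above 0, with a median of 0.07, and that median held its sign under all 9 settings.

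**Figure D3:**
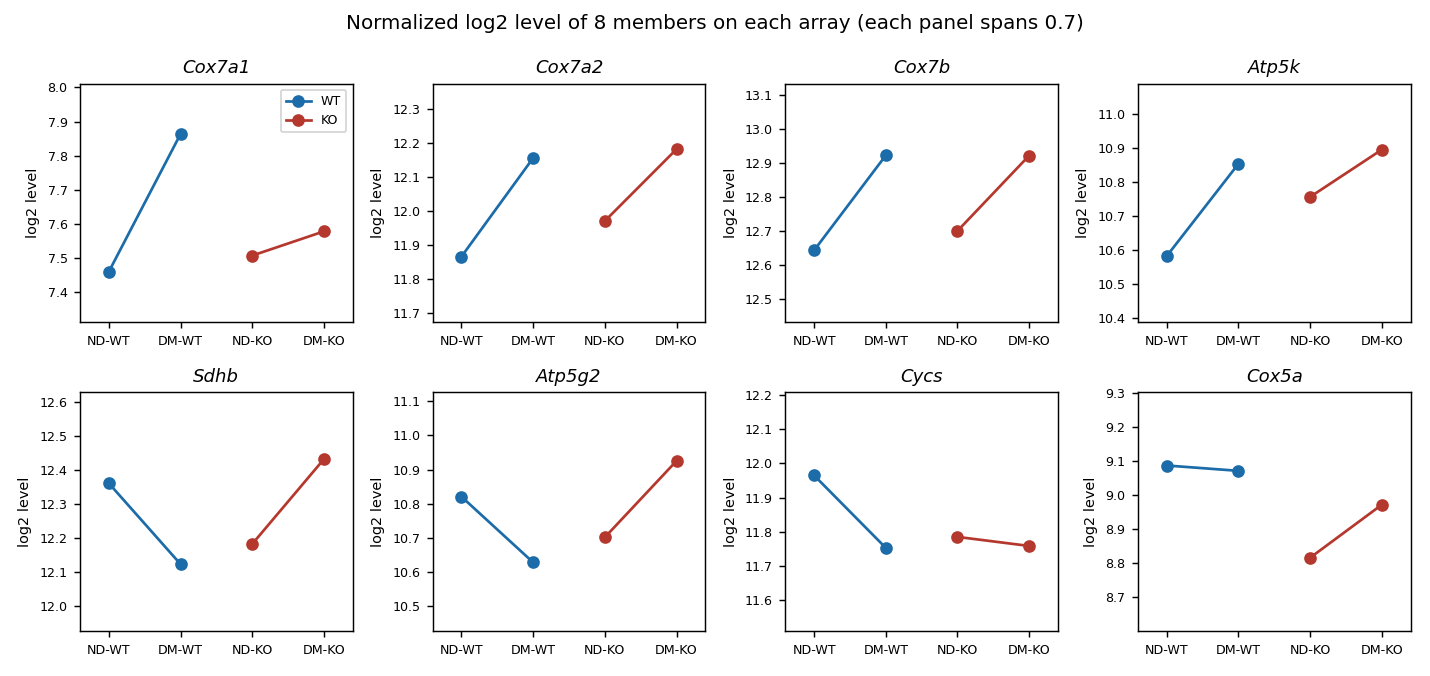
Normalized log2 level (y axis, each panel spanning 0.7) of 8 members on the 4 arrays (x axis); each point is 1 array and lines join the arrays of 1 genotype. Cox7a2, Cox7b and Atp5k are higher on the diabetic array of both genotypes, although median centring gives -0.06 for Cox7b in the wild type and the deposited values give -0.01 for Atp5k in the knockout; Sdhb and Atp5g2 are high on ND-WT and DM-KO.

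The limma fit tested 6219 genes measured on at least 2 arrays, 51 of them members. For diabetes 0 members passed a Benjamini-Hochberg adjusted p of 0.05 in limma, against 1.53% of all genes (0.836% that rose and 0.691% that fell). At an unadjusted p under 0.05, 6 members were higher, against 7.72% of all genes, and 0 were lower, against 7.19%. The lowest was Cox7b, with an estimate of 0.25 on the log2 scale (SE 0.068, limma adjusted p = 0.164), followed by Cox7a2 at 0.25 (SE 0.069, limma adjusted p = 0.169). The other 4 were Ndufb9, Atp5k, Cox6c and Cox7a1, at 0.19 to 0.24 with limma adjusted p from 0.265 to 0.327. These 6 were higher on the diabetic array in both genotypes, which the fit favours, as its spread is the disagreement between the genotypes. Cox7a1 differed by 0.40 in the wild type and 0.07 in the knockout. Among negative estimates the lowest p-values were those of Sdha (-0.12, limma adjusted p = 0.508), Ndufaf3 (-0.11) and Ndufaf2 (-0.11). The direction depended on the scaling: under median centring 0 members were higher and 8 lower at an unadjusted p under 0.05.

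For genotype, 0 members passed in limma, against 0.193% of all genes (0.0322% higher and 0.161% lower in the knockout). At an unadjusted p under 0.05, 3 were lower in the knockout, against 5.34% of all genes, and 0 higher, against 5.71%. They were Cox8b (-0.35 on the log2 scale, SE 0.12, limma adjusted p = 0.348), which was not above background on DM-KO, Ndufa5 (-0.21, SE 0.072, limma adjusted p = 0.369) and Atp5l (-0.18, SE 0.071, limma adjusted p = 0.450). Among positive estimates Atp5k was at 0.11, with a limma adjusted p of 0.647. Under every alternative of both fits 0 members passed, with a lowest adjusted p of 0.130 to 0.931 for diabetes and 0.212 to 0.999 for genotype; with 1 array left out, 0 genes of any kind passed for genotype and 0 to 43 for diabetes.

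Among the tissue-restricted isoforms, Cox7a1 (above) was measured on all 4 arrays, whereas Cox4i2 and Cox8b were at or near background. Cox8b had log2 levels of 6.22 on ND-WT and 6.52 on DM-WT, with 6.10 on ND-KO and 5.93 on DM-KO, where it was not above background. Set against the dim probe's own reading on DM-KO, it read higher by 0.58 on the log2 scale on DM-WT and by 0.16, or 1.12-fold, on ND-KO. As that reading is at background, it sets no limit on either difference. Cox6a2, the muscle isoform of subunit VIa, stood at 6.47, 6.56, 6.42 and 6.33. DM-WT was the high array for Cox8b, Cox6a2 and Cox7a1, and the wild-type difference held its sign under all 9 settings for these 3 isoforms. For Cox6a2 that difference was only 0.09 on the log2 scale, and its intensities on ND-WT and DM-WT were nearly equal before normalization. Of 12 muscle markers on the array 1 to 2 were measured on each array, and Ckm, the muscle creatine kinase, was measured on none. The markers' summed linear level was 692 to 705. Their mean log2 level was 5.84 to 5.86, close to the 5.73 to 5.78 of Ckm. The sum is thus mostly background and does not measure an amount of muscle RNA. Of 7 adipocyte markers 4 were measured on ND-KO and 2 on each other array, with a summed level of 3589 on ND-KO and 2173 to 2793 elsewhere. The 2 measured on every array were Lpl and Fabp4, with log2 levels of 10.73 and 9.64 on ND-WT. Adipoq and Cfd, secreted by fat cells, were measured only on ND-KO, and Ucp1, the uncoupling protein of brown fat, on none.

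The 4 genes left out bear on how such losses look. Cox6a1, the general isoform of subunit VIa, had background-subtracted intensities of 12.2 on DM-WT but 7975 (ND-WT), 7787 (ND-KO) and 7425 (DM-KO) elsewhere. Atp5g1, another gene for ATP synthase subunit c, had 6.61 on DM-WT and 974, 1662 and 1970 on the others in that order. Both spots were marked empty on DM-WT. Cox6b1 and Atp5j2, which lie in the same columns, were measured on all 4 arrays, at 2470 to 2641 and 1873 to 2285.

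Other genes of the pathway were read from lists of related function. Of 48 further assembly factors and regulators 17 were on the array, with a median log2 difference of -0.08 in the wild type (5 of 14 above 0) and -0.11 in the knockout (3 of 15 above 0), and both medians stayed below 0 under all 9 settings. Of all genes, 46.3% lay above 0 in the wild type and 47.5% in the knockout. At least 1.2-fold higher were 0 of the listed genes in each diabetes comparison, against 7.45% and 4.27% of all genes. At least 1.2-fold lower were 0 in the knockout, against 3.46%, and 1 in the wild type, against 6.74%. That gene was Acad9, needed for complex I assembly, at 9.15 on ND-WT and 8.74 on DM-WT, with 9.15 on ND-KO and 8.90 on DM-KO. Both diabetic arrays lay below both nondiabetic ones. Nubpl, which delivers iron-sulfur clusters to complex I, differed by -0.12 in the wild type and -0.24 in the knockout, and Higd1a, a hypoxia-induced partner of complex IV, by 0.18 and 0.17.

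The citric acid cycle and pyruvate dehydrogenase list, with 22 genes measured, had median log2 differences with diabetes of 0.02 in the wild type, but -0.20 under median centring, and -0.02 in the knockout. Me1, the cytosolic malic enzyme, differed by -0.47 and -0.34, and Pdk4, an inhibitory kinase of pyruvate dehydrogenase, by 0.58 and 0.14. Pck1, which catalyses the committed step of gluconeogenesis, differed by 0.16 and -0.42. The list of mitochondrial biogenesis and mitochondrial DNA expression had medians of -0.01 (-0.13 under median centring, 0.01 with cyclic loess) and -0.05. In the knockout 1 of its 11 genes lay above 0, against 47.5% of all genes. Within it Ssbp1 had the largest mean absolute difference over both genotypes, at -0.17 in the wild type and -0.18 in the knockout. Sirt3 followed at 0.03 and -0.22. Tfam, the mitochondrial transcription factor, was nearly level at 8.88, 8.83, 8.91 and 8.87 on the wild-type and knockout arrays, the nondiabetic one of each first. Nrf1 was at 6.13, 6.16, 6.14 and 6.13. No gene of these lists passed the limma test for diabetes; Tfam and Nrf1 were singled out after their values were seen.

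Carriers, uncoupling proteins and ubiquinone genes had a median of -0.08 in the wild type, with 3 of 19 genes 1.2-fold higher and 3 lower (7.45% and 6.74% of all genes). In the knockout the median was 0.04 (-0.03 with the deposited values), with 14 of 19 above 0, against 47.5% of all genes. Ucp2, an uncoupling protein relative of the inner membrane, had log2 levels of 8.18 on ND-WT and 9.32 on DM-WT, with 8.55 on ND-KO and 8.73 on DM-KO. DM-WT was the high array. Slc25a10, the dicarboxylate carrier, differed by -0.40 in the wild type and 0.07 in the knockout. Nnt, a proton-driven transhydrogenase that makes mitochondrial NADPH, was the only gene of the 5 lists to pass for genotype. It stood at 9.12 on both wild-type arrays and at 8.45 and 8.41 on ND-KO and DM-KO, an estimate of -0.69 (SE 0.068, limma adjusted p = 0.0416). The estimate lay between -0.81 and -0.64 in 15 alternative fits, but Nnt passed in only 5 of them. Its limma adjusted p was 0.0627 with cyclic loess, 0.251 with the deposited values and 0.323 without the diabetes term. The fits with 1 array left out dropped that term as well. They gave Nnt estimates of -0.71 to -0.66. The list of redox defence and dynamics had medians of 0.04 (-0.12 under median centring) and -0.00 (-0.06 with the deposited values). Its largest mean absolute difference over both genotypes was that of Dnm1l, at 0.15 and 0.26. Pink1, a mitophagy kinase, was at -0.29 and -0.06.

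Summed levels of several cell type markers differed between the arrays as well. Beside the counts above 0 that follow, the share of all genes was 46.3% in the wild type and 47.5% in the knockout. All 18 proximal tubule markers on the array were measured on all 4 arrays, with a median log2 difference of -0.15 in the wild type (4 of 18 above 0) and -0.13 in the knockout (3 of 18), and a summed linear level of 35317 on ND-WT and 30772 on DM-WT, with 35013 on ND-KO and 31477 on DM-KO. Of 9 thick limb and distal tubule markers measured in the wild type 8 lay above 0, with a median of 0.28, and 5 of 8 in the knockout, with a median of 0.16; their summed level was 9062, 12423, 9311 and 10040. Macrophage markers had a median of 0.55 in the wild type (9 of 9 above 0) and 0.31 in the knockout (8 of 8), with a summed level of 1228, 1956, 1292 and 1585. Adgre1, a defining macrophage marker, was not above background on any array. Collecting duct markers had medians of 0.06 and 0.15, and podocyte and endothelial markers 0.06 (-0.04 under median centring) and -0.07. The thick limb and distal tubule list was not uniform. Calb1 differed by 0.89 in the wild type and 0.71 in the knockout, and Pvalb by 0.67 and 0.37. Egf differed by -0.26 and -0.24, and Umod by 0.13 and -0.43. For the proximal tubule, the macrophage and this mixed list, the signs of the medians held under all 9 settings in both genotypes. The part of these cell type differences in those of the respiratory genes was not tested.

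**Figure D4:**
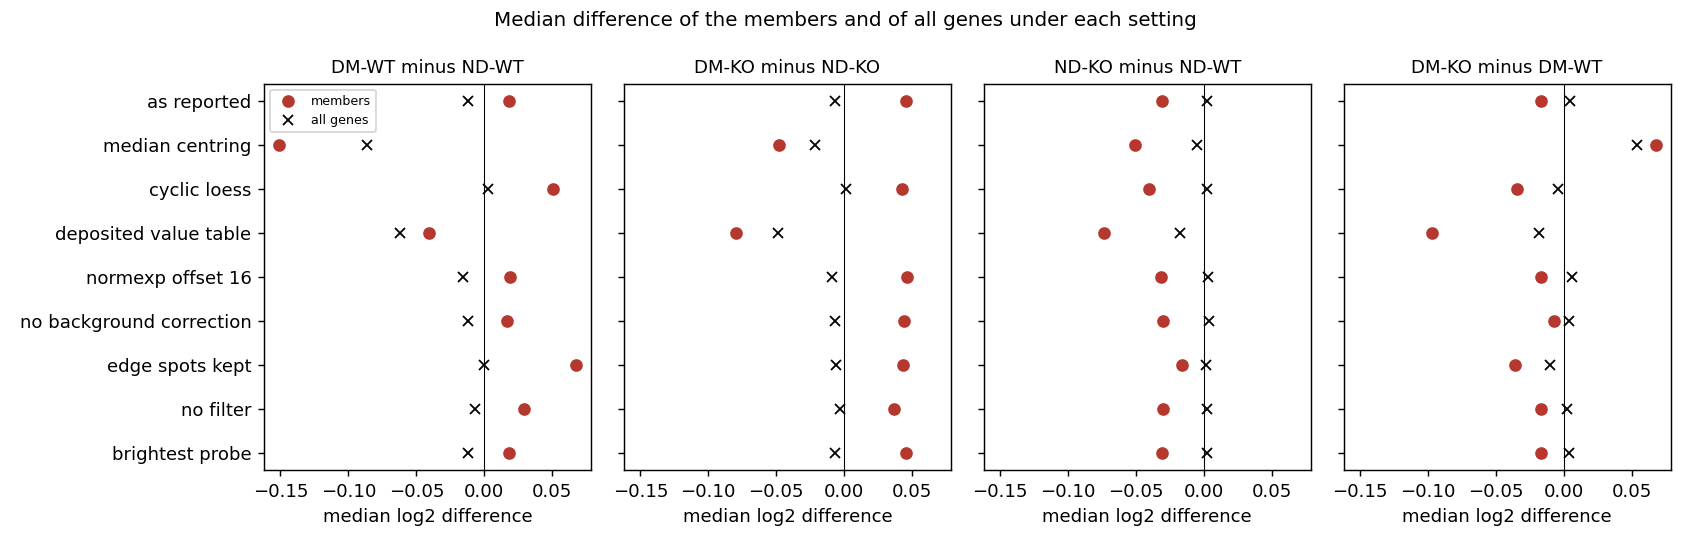
Median log2 difference (x axis) of the members (red points) and of all genes measured on both arrays (crosses) in each comparison (panels) under each processing setting (rows); the setting that kept edge spots adds the 4 genes left out elsewhere. The members' median with diabetes changes sign in the wild type (0.02 as reported, -0.15 under median centring, -0.04 with the deposited values) and in the knockout (0.05, -0.05 and -0.08), and it stays below 0 for ND-KO against ND-WT.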

How the data were processed

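Total RNA of kidney cortex was hybridised to 4 CodeLink arrays, 1 per group. Per the file headers, the deposited scanner tables give each spot's mean intensity and its local background median on a linear scale, with a quality mark (other) of usable, empty or poor. Scanning and the CodeLink Expression Analysis software are named in the labels. The authors' deposited value table also holds intensity: spot mean minus background divided by 1 constant per array (ND-WT 43.9, DM-WT 38.1, DM-KO 46.9, ND-KO 45.0; 99.97% of probes within 0.1%). Medians of its columns were 0.926 on ND-WT, 0.929 on ND-KO and 0.930 on both diabetic arrays. No gene centring was seen, levels run in the direction of intensity, and the rule for the constant stays unknown.

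Here intensities were corrected with normexp (offset 50, all spots), converted to log2 and quantile-normalized without control and edge spots, with poor spots missing (limma 3.58.1, R 4.3.3, Python 3.11.15). Of 10032 gene probes, 9208 had 1 symbol in the platform annotation, 1 several and 823 none; 6301 to 6641 were usable per array, and no spot was saturated. Probes of a gene were averaged. Diabetes and genotype were fitted additively in limma with 1 residual degree of freedom, over genes measured on at least 2 arrays, with Benjamini-Hochberg adjustment. On simulated data this step recovered genes changed by 1 or 2 on the log2 scale. Changes as small as those of the members were not simulated, so their recovery is unknown. False calls were above the nominal rate, so an adjusted p near the threshold may be too low. The number of arrays limits the precision.

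Members, lists and the fold thresholds of 1.1 and 1.2 were chosen with earlier results of these data known. Named were the 3 highest and 3 lowest members per comparison and interaction, the extremes of each complex, the 3 lowest p-values per direction, tissue-restricted isoforms, members not measured throughout, and up to 4 genes per other list; genes outside this rule are single examples. Alternatives were median centring, cyclic loess, the deposited values, an offset of 16, no background correction, edge spots kept, no filter and the brightest probe. Other limma fits were made as well, and each array was left out with the term for the other factor dropped. Promoter sequences are from RefSeq.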

Additional observations from a re-analysis of the deposited data

Results flagged for a closer look

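Sdhb and Atp5g2 were set apart because their differences with diabetes ran in opposite directions in the 2 genotypes, each by at least 1.1-fold. For Sdhb the knockout difference exceeded the wild-type difference by 0.49 on the log2 scale, from -0.24 in the wild type and 0.25 in the knockout. For Atp5g2 the value was 0.42, from -0.19 and 0.22. Under median centring and with the deposited values the knockout differences were under 1.1-fold, at 0.10 and 0.07 for Sdhb and 0.12 and 0.09 for Atp5g2. Each group has 1 array, so the difference between genotypes was not tested. Opposite differences of this size were found for 2 of 50 members and 2.25% of all genes.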

How the results depend on the processing

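For DM-WT against ND-WT median centring gave a median of -0.15, 2 members higher, 11 lower and -0.057 for Cox7b, whose sign turned; for DM-KO against ND-KO it gave 0 higher, for DM-KO against DM-WT 0 lower, and for the knockout less wild-type difference a median of 0.13. With the deposited values, DM-WT against ND-WT had 2 higher and 4 lower, DM-KO against ND-KO a median of -0.080 with 0 higher and 2 lower, ND-KO against ND-WT 4 lower, and DM-KO against DM-WT 0 higher and 5 lower. Cyclic loess gave 3 higher for DM-WT against ND-WT, an offset of 16 gave 2 lower for ND-KO against ND-WT, and keeping edge spots gave 3 higher for DM-KO against ND-KO, 1 higher for ND-KO against ND-WT and 4 lower for DM-KO against DM-WT. The cause was not tested, except that the last setting adds 4 genes. Among single members' differences, 1476 of 1632 values stayed within 0.104 log2, 155 moved further and 1, Cox7b above, turned its sign from a difference of at least 1.2-fold. Part of the 1476 was fixed in advance, as dropping the filter or taking the brightest probe leaves a member's value unchanged. Smaller differences turned sign more often. Over the 9 settings the sign held for 8 members above 0 and 19 below for DM-WT against ND-WT, and differed for 25 of 52; it differed for 15 of 50 for DM-KO against ND-KO, 8 of 52 for ND-KO against ND-WT and 28 of 50 for DM-KO against DM-WT.

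Calls by limma over all genes for diabetes numbered 95 and, with all 4 arrays, ranged from 1 with edge spots kept to 263 under median centring. They were 59 with cyclic loess, 5 with the deposited values and 42 at an offset of 16. Without background correction they were 141, without the filter 50 and without the genotype term 3. For genotype they numbered 12 and ranged from 0 to 58. The fits with 1 array left out also dropped the term for the other factor and left 1 array in a group. The missing array and the missing term cannot be told apart there, so the count of 0 members in those fits says nothing about stability. No paired analysis was possible because each group has 1 array and the labels give no shared replicate numbers.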
